A study of Mus musculus with 4 samples.

Results

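Transcripts of 9 of 10 genes for cohesin, its regulators and CTCF were more abundant in RNA precipitated with an antibody against SAFB than in RNA precipitated with control IgG. By the same test 29.8% of all 16647 genes tested were higher. The 10 genes were Smc1a, Smc3, Rad21, Stag1, Stag2, Nipbl, Wapl, Pds5a, Pds5b and Ctcf. They were taken by gene symbol, each matched 1 of the 52189 genes in the table, and all 10 passed the filter on low values. The largest difference was that of Wapl, which averaged 247 TPM in the SAFB RIP and 31.6 TPM in the IgG RIP. The exception was Pds5a, which averaged 164 TPM in the SAFB RIP and 136 TPM in the IgG RIP and did not pass the test.

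The cells were AML12, an established mouse hepatocyte line derived from a mouse carrying a human TGF-alpha transgene, grown with 10% fetal bovine serum and 0.1 µM dexamethasone. All libraries share this line and medium, and each held nuclear RNA from UV-crosslinked cells. The SAFB RIP (RNA immunoprecipitation followed by sequencing) used a SAFB antibody and has 2 libraries, and the IgG RIP used a control immunoglobulin and has 2 libraries. The study set out to find RNAs associated with SAFB, scaffold attachment factor B, a protein of the nuclear matrix that binds DNA and RNA. Nothing in the labels says that the libraries of a group came from separate cultures, so p-values measure only the spread between these libraries, which may be technical.

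Cohesin is a ring of SMC1A, SMC3 and the kleisin RAD21, to which STAG1 or STAG2 is bound. It holds sister chromatids together and folds interphase chromatin into loops. NIPBL, with its partner MAU2, loads cohesin and drives loop growth, WAPL and the PDS5 proteins release it from DNA, and CTCF bound at its sites stops the growing loop. The values here concern the RNAs of these genes and not their proteins.

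TPM values are transcript shares scaled to 1000000 per library, so levels are set beside each other between genes. The annotation behind the values is not stated, and levels were not adjusted for base composition, which limits comparisons between genes. The read depth is unknown and no counting error can be given. The SAFB libraries listed 22389 and 21006 genes above 0, against 16031 and 17278 in the IgG libraries. Protein-coding genes took 83.7% of TPM in both SAFB libraries, against 68.0% and 67.8% in the IgG libraries. AY036118, Gm26917 and Gm42418, noncoding RNAs at a ribosomal DNA fragment, took 1.0% and 1.52% in the SAFB libraries and 18.7% and 14.8% in the IgG libraries, and such a share lowers all other values of a library. Safb itself stood at 988 and 880.1 TPM in the SAFB libraries and at 170 and 161 TPM in the IgG libraries. Of 12 hepatocyte markers 11 reached 1 TPM in at least 2 libraries, and the list summed to 6379 and 6619 TPM in the SAFB libraries and 7535 and 7565 TPM in the IgG libraries. None of 6 endothelial and none of 6 fibroblast markers did, with Cdh5, Lyve1, Stab2 and Tek, and Acta2, Col3a1 and Pdgfrb, listed at 0 in every library. Among cholangiocyte markers 4 of 5 did, with sums of 3068 and 3091 TPM in the SAFB libraries and 2702 and 2617 TPM in the IgG libraries. Among leukocyte markers 2 of 6 did, with sums of 34.5 and 23.1 TPM in the SAFB libraries and 13.5 and 8.62 TPM in the IgG libraries and with Adgre1 and Lyz2 at 0. The part of these markers in the results was not tested.

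The 10 transcripts resemble each other in several features. The members were chosen with earlier results of these data known, and some of these features run with fold change across coding genes. The features may therefore not be independent of that choice. In GENCODE release M21 (mm10) their representative transcripts, those with the longest coding sequence, ran from 3782 to 9423 bases with 12 to 47 exons, against medians of 2914 bases and 9 exons over 11961 protein-coding genes tested. Their GC content was 38.1% to 46.9%, below the 50.5% median of those genes in all 10. SAFB proteins are known from human cells to bind purine-rich RNA, so GAAGA was counted on the sense strand, overlapping matches included, with its reverse complement TCTTC beside it. GAAGA occurred 5.06 to 9.19 times per kb of coding sequence in 9 members and 2.75 times in Pds5a, against a median of 3.26 over coding genes. TCTTC occurred 0 to 2.37 times per kb in the members, against a median of 1.43. The codons of lysine and glutamate, which are spelled with purines alone, made up 15.1% to 26.2% of the members' codons, against a median of 12.7%, with the SMC subunits highest at 26.2% in Smc1a and 22.3% in Smc3. A match to these letters is a description and not a binding site, and introns were not analysed here.

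The sequences below are the 60-base coding windows within a single exon that hold the most GAAGA, read 5′ to 3′ from the GENCODE transcripts, with each GAAGA in capitals. They show the members with the largest differences (Wapl and Nipbl), the window with the most matches (Smc3), the other ring subunits with the fewest among the members that rose (Smc1a and Rad21), Ctcf, and the PDS5 paralogs, of which only Pds5b passed the test.
Wapl: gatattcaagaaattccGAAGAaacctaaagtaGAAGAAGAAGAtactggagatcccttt
Nipbl: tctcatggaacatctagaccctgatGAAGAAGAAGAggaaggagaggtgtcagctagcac
Smc3: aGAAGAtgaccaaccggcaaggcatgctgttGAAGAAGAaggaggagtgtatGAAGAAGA
Smc1a: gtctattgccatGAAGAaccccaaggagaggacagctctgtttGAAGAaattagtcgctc
Rad21: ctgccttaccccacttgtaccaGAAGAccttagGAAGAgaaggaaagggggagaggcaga
Ctcf: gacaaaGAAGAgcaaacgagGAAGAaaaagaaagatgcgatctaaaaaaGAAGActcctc
Pds5b: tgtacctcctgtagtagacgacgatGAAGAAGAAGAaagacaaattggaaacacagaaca
Pds5a: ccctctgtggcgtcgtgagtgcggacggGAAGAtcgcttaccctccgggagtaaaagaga

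On mm10 the Wapl window lies in exon 2 of 19 (chr14:34677135-34677194, plus strand) and the Nipbl window in exon 46 of 47 (chr15:8292258-8292317, minus strand). The Smc3 window lies in exon 24 of 29 (chr19:53640885-53640944, plus strand) and the Ctcf window in exon 10 of 12 (chr8:105677283-105677342, plus strand). The Smc1a window lies in exon 4 of 25 (chrX:152026249-152026308, plus strand) and the Rad21 window in exon 10 of 14 (chr15:51968452-51968511, minus strand). The Pds5b window lies in exon 32 of 35 (chr5:150800910-150800969, plus strand) and the Pds5a window in exon 2 of 33 (chr5:65696807-65696866, minus strand). The Smc3 window held 5 matches, and 2.47% of coding genes tested had a coding window of this length with at least as many. The Wapl window held 4 (6.54% of coding genes), those of Nipbl, Ctcf and Pds5b held 3 (19.5%), those of Smc1a and Rad21 held 2 (55.6%), and that of Pds5a held 1 (92.5%). Of the members not shown, Stag1 held 4 and Stag2 held 3. Smc1a had few matches in its best window although its density over the whole coding sequence was the highest of the 10. The shares count any coding window, including those that cross an exon junction. Longer coding sequences offer more windows, and the shares were not adjusted for length. The members' coding sequences had a median of 3736.5 bases, against 1386 over coding genes tested.

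Differences were tested in limma on log2(TPM + 1), and a gene passed at a Benjamini-Hochberg adjusted p below 0.05 over the 16647 genes that reached 1 TPM in 2 or more libraries. Of the 10 members 9 rose and 0 fell in the SAFB RIP, where 29.8% of all genes tested rose and 8.3% fell. Among protein-coding genes alone 28.3% rose and 10.1% fell. The members' median log2 fold change was 1.71, against 0.46 over all genes tested and 0.34 over protein-coding genes. Because of that general shift, values are also given after centring each library on its median, where 9 members still rose and 0 fell, while 16.4% of all genes rose and 17.6% fell. For 9 members the lower SAFB value exceeded the higher IgG value, which was also so for 52.3% of all genes tested, and for 0 members and 21.4% of all genes the higher SAFB value lay below the lower IgG value. All libraries share the same cell line and medium, but the input was not analysed here. The level of a transcript in the cells of each library is therefore unknown. Recovery by SAFB, background in the IgG RIP and the composition of the libraries cannot be told apart as sources of a difference. Where a library is left out below, 1 group has a single library, which is assumed to vary like the other group, so a pass or a miss in such a fit depends on that assumption.

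**Figure D1:**
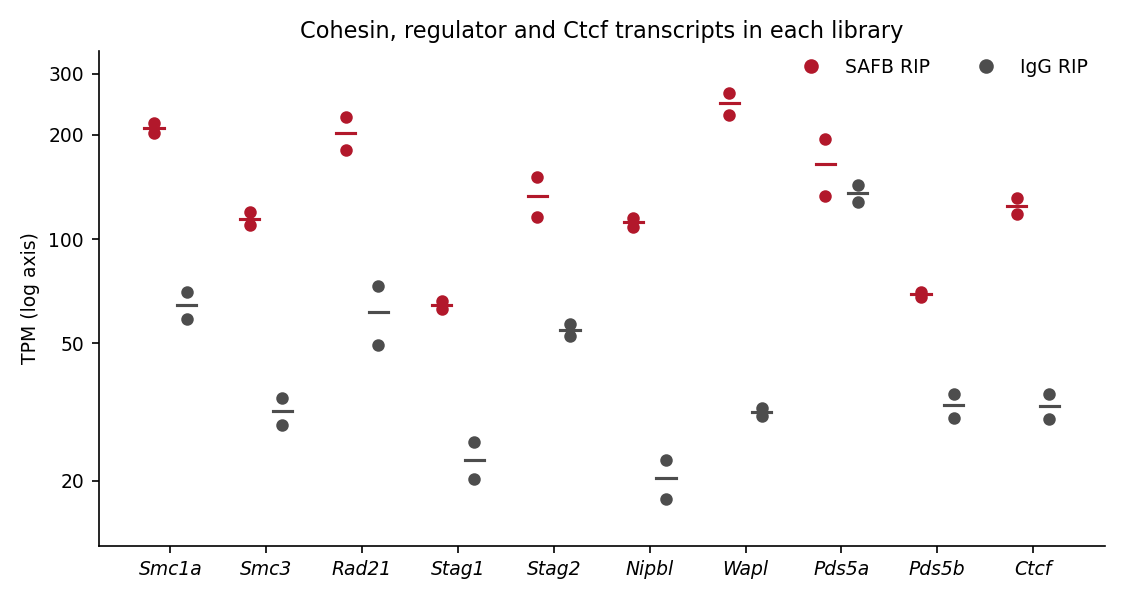
TPM of each member in every library on a log axis, with the SAFB RIP in red to the left and the IgG RIP in grey to the right. Points are libraries and bars are group means of 2 libraries. The groups overlap for Pds5a alone, where SAFB RIP replicate 2 at 133 TPM lies between the IgG libraries at 128 and 144 TPM.

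The ring subunits rose together. Smc1a (chromosome X, 152016428 to 152062694), which encodes an ATPase arm of the ring, stood at 216 and 202 TPM in the SAFB libraries and at 70.4 and 58.6 TPM in the IgG libraries. Smc3 (chromosome 19, 53600398 to 53645833), the gene of the other arm, stood at 119 and 109.6 TPM in the SAFB libraries and at 28.9 and 34.8 TPM in the IgG libraries. Rad21 (chromosome 15, 51962240 to 51991747), the kleisin that closes the ring and is cut by separase at anaphase, stood at 225 and 180.3 TPM in the SAFB libraries and at 49.4 and 73.3 TPM in the IgG libraries. The groups lay clear of each other for all of these genes, with the widest gap between libraries in Rad21. The log2 fold changes were 1.69 ± 0.13 (SE) for Smc1a, 1.82 ± 0.15 for Smc3 and 1.73 ± 0.24 for Rad21, with limma adjusted p of 0.00499, 0.00518 and 0.0105. After median centring they were 1.23, 1.36 and 1.27, and all passed. Rad21 has a processed pseudogene, Gm8473 (84.5% identity over 1597 bases), and Smc3 has Gm29763 (94.5% over 616 bases), and both were listed at 0 in every library.

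The STAG subunits bind the ring and link it to CTCF, and a complex holds either STAG1 or STAG2. Stag1 (chromosome 9, 100597798 to 100959375) stood at 62.7 and 66.4 TPM in the SAFB libraries and at 25.8 and 20.3 TPM in the IgG libraries. Stag2 (chromosome X, 42149317 to 42277185) stood at 151 and 116 TPM in the SAFB libraries and at 52.6 and 56.7 TPM in the IgG libraries. Stag2 was thus the more abundant paralog in all 4 libraries. Both rose, Stag1 by 1.46 ± 0.18 (limma adjusted p = 0.00884) and Stag2 by 1.26 ± 0.17 (limma adjusted p = 0.00990), and after median centring by 1.0 and 0.80. Within a library, a ratio of 2 transcripts does not move with the scaling of that library. The ratio of Stag2 to Stag1 was 2.41 and 1.75 in the SAFB libraries and 2.04 and 2.80 in the IgG libraries, so the groups overlapped and no difference between the paralogs was detectable.

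The loader gene Nipbl and its partner Mau2 parted. Nipbl (chromosome 15, 8290617 to 8444463) stood at 115 and 109 TPM in the SAFB libraries and at 17.8 and 23.0 TPM in the IgG libraries, and rose by 2.41 ± 0.18 (limma adjusted p = 0.00468). Mau2 stood at 106 and 109 TPM in the SAFB libraries and at 186 and 131 TPM in the IgG libraries, a log2 fold change of -0.53 ± 0.19 that did not pass (limma adjusted p = 0.0897). After median centring Nipbl rose by 1.95 and Mau2 fell by 0.99 (limma adjusted p = 0.0245). The fall of Mau2 depended on the setting. It was -0.12 and did not pass (limma adjusted p = 0.582) with a trend of fold change on GC content removed. It was -0.28 and did not pass without IgG RIP replicate 1 (limma adjusted p = 0.0789), and -0.78 and passed without IgG RIP replicate 2 (limma adjusted p = 0.0015). The ratio of Nipbl to Mau2 was 1.09 and 0.994 in the SAFB libraries and 0.0957 and 0.175 in the IgG libraries. The pair thus stood near equal levels in both SAFB libraries, with Nipbl the far less abundant in both IgG libraries.

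The genes of release factors held the extremes of the members. Wapl (chromosome 14, 34673928 to 34747983), whose protein opens the ring and limits how long cohesin stays on chromatin, stood at 265 and 228 TPM in the SAFB libraries and at 30.9 and 32.4 TPM in the IgG libraries. It rose by 2.92 ± 0.13 (limma adjusted p = 0.00373), above 97.3% of all genes tested. Its coding sequence is the one shown above with 4 GAAGA in a window.

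PDS5 proteins hold WAPL on cohesin and also take part in its acetylation. Pds5b (chromosome 5, 150673739 to 150810690) stood at 70.4 and 68.0 TPM in the SAFB libraries and at 30.4 and 35.7 TPM in the IgG libraries, and rose by 1.05 ± 0.15 (limma adjusted p = 0.0113), or 0.59 after median centring. Pds5a (chromosome 5, 65605721 to 65698273) stood at 195 and 133 TPM in the SAFB libraries and at 128 and 144 TPM in the IgG libraries. Its log2 fold change was 0.25 ± 0.21 (limma adjusted p = 0.394) with a 95% interval of -0.31 to 0.81, and -0.21 after median centring. Without SAFB RIP replicate 1 it was -0.022. The ratio of Pds5b to Pds5a was 0.361 and 0.510 in the SAFB libraries and 0.238 and 0.248 in the IgG libraries, so the groups lay apart. Pds5a was the most abundant member in the IgG RIP and the fourth in the SAFB RIP. Its exons overlap Gm42727 (255 bases) and Gm42729 (119 bases) on the opposite strand, whose levels reached at most 4.94 TPM in any library. The use of strand in counting is not given in the sources used here, so the reads of such overlaps cannot be told apart.

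Ctcf (chromosome 8, 105636568 to 105682922), the zinc finger protein gene of loop anchors and insulators, stood at 131 and 118 TPM in the SAFB libraries and at 35.8 and 30.3 TPM in the IgG libraries. It rose by 1.89 ± 0.15 (limma adjusted p = 0.00488), or by 1.43 after median centring. The ratio of Ctcf to Smc3 was 1.10 and 1.08 in the SAFB libraries and 1.24 and 0.871 in the IgG libraries. The groups overlapped in this ratio, and its values stayed near 1 in every library. Exons of Ctcf overlap 142 bases of Agrp and of Gm5914 on the other strand, listed at no more than 0.256 and 5.48 TPM.

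The order of the members differed between the groups. In the SAFB RIP it ran from Wapl (247 ± 25.7 TPM, SD, n = 2) through Smc1a, Rad21, Pds5a, Stag2, Ctcf, Smc3 and Nipbl to Pds5b and Stag1 (64.5 ± 2.59 TPM). In the IgG RIP it ran from Pds5a (136 ± 11.3 TPM) through Smc1a, Rad21, Stag2, Pds5b, Ctcf, Smc3 and Wapl to Stag1 and Nipbl (20.4 ± 3.69 TPM). Neighbours from Smc1a to Nipbl in the SAFB RIP overlapped in their libraries, as did those from Smc1a to Stag2, from Pds5b to Wapl, and Stag1 and Nipbl, in the IgG RIP. Wapl moved from eighth place in the IgG order to the first in the SAFB order. Together the members took 0.155% and 0.133% of TPM in the SAFB libraries, against 0.0470% and 0.0509% in the IgG libraries. As a share of protein-coding TPM they took 0.185% and 0.159% in the SAFB libraries and 0.0691% and 0.0750% in the IgG libraries.

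Ratios to Smc3 within each library differed in whether the groups overlapped. Wapl stood at 2.22 and 2.08 times Smc3 in the SAFB libraries and at 1.07 and 0.932 times in the IgG libraries. Nipbl stood at 0.964 and 0.991 times Smc3 in the SAFB libraries and at 0.614 and 0.661 times in the IgG libraries. Both were thus higher relative to Smc3 in each SAFB library, while Pds5a, Pds5b and Stag2 were lower relative to it. Pds5a stood at 1.64 and 1.22 times Smc3 in the SAFB libraries and at 4.41 and 4.13 times in the IgG libraries. Pds5b stood at 0.590 and 0.621 times Smc3 in the SAFB libraries and at 1.05 and 1.03 times in the IgG libraries. Stag2 stood at 1.27 and 1.06 times Smc3 in the SAFB libraries and at 1.82 and 1.63 times in the IgG libraries. For Smc1a, Rad21, Stag1 and Ctcf the groups overlapped. In all, the groups lay apart in 7 of the 12 ratios examined and overlapped in 5. Of the 12 ratios 9 share Smc3 and are not independent, and the share over other pairs of genes was not computed. With 2 libraries in each group the smallest two-sided p of an exact permutation test is 0.33. Groups lie apart that often under random labels, so the ratios are given as values.

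**Figure D2:**
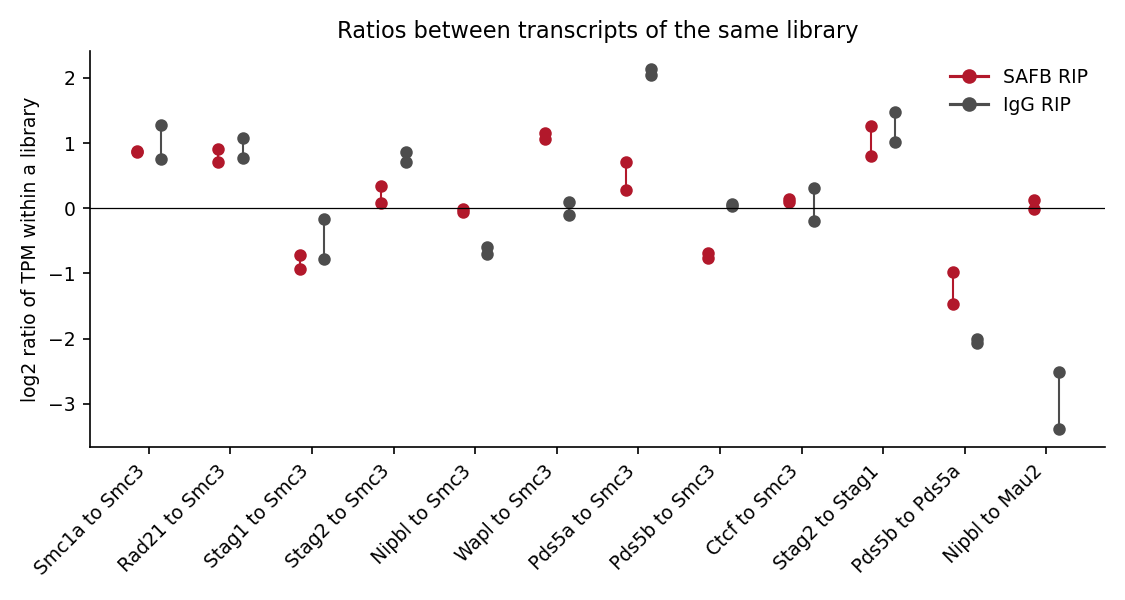
Log2 ratio of the TPM of 2 transcripts within each library, with the SAFB RIP in red to the left and the IgG RIP in grey to the right, for 12 pairs. Points are libraries joined by a line within a group. Wapl to Smc3 and Nipbl to Mau2 lie higher in both SAFB libraries, Pds5a to Smc3 lies lower, and Stag2 to Stag1 overlaps.

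Other genes of cohesin loading, cohesion and CTCF partnership were divided between higher, lower and not passing, and their difference from the members was not tested. There were 25 such genes, of which 20 were tested, and 6 rose, 1 fell and 13 did not pass, so that 30.0% rose against 29.8% of all genes, and their median log2 fold change was -0.07. Sgo1, whose shugoshin protein protects centromeric cohesin, rose by 2.41 ± 0.35 (limma adjusted p = 0.0121) and stood at 11.6 and 9.02 TPM in the SAFB libraries and 1.42 and 0.840 TPM in the IgG libraries. Haspin, the kinase gene for a histone H3 mark at centromeres, rose by 2.35 ± 0.32 (limma adjusted p = 0.0105) and stood at 14.2 and 17.9 TPM in the SAFB libraries and 2.40 and 2.25 TPM in the IgG libraries. Both also rose after median centring, by 1.95 and 1.89, but neither passed without SAFB RIP replicate 1 (limma adjusted p = 0.202 for Sgo1 and 0.0613 for Haspin) or without SAFB RIP replicate 2 (0.113 and 0.109). Sgo2a and Dscc1, named after their values were seen because they passed, rose by 1.46 ± 0.39 and 1.32 ± 0.36, and neither passed after median centring. Sgo2a stood at 7.22 and 6.62 TPM in the SAFB libraries and at 2.68 and 1.24 TPM in the IgG libraries. Dscc1 stood near the filter on low values, at 1.53 and 2.63 TPM in the SAFB libraries and 0 and 0.482 TPM in the IgG libraries.

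Among genes for CTCF partners, Yy1 rose by 0.86 ± 0.14 and Zfp143 by 0.73 ± 0.20, and neither passed after median centring, at 0.40 and 0.27, or without either SAFB library. Maz stood at 86.9 and 95.5 TPM in the SAFB libraries and 140 and 120.3 TPM in the IgG libraries and fell by 0.50 ± 0.13 (limma adjusted p = 0.0400). With a trend of fold change on GC content removed, Maz stood at 0.48 and passed as higher, so its direction depended on that correction, and without either SAFB library it did not pass. Ldb1 stood at -0.08 ± 0.15 and did not pass, although it passed as higher (0.54) with the trend on GC content removed. The acetyltransferase gene Esco1, whose protein acetylates SMC3, stood at 1.35 ± 0.41 (limma adjusted p = 0.0604) and the deacetylase gene Hdac8 at -0.27 ± 0.17, and neither passed, although Hdac8 fell by 0.73 after median centring and Esco1 passed without IgG RIP replicate 1 (1.79) or 2 (0.90). The mitotic genes Cdca5 (sororin), Espl1 (separase), Pttg1 (securin) and Plk1 stood between -0.67 and -0.23, and none passed, although without IgG RIP replicate 2 Cdca5 (-0.87) and Pttg1 (-1.29) passed as lower. Chtf8, Ddx11 and Wdhd1, of replication-coupled cohesion, stood at 0.98 ± 0.35, -0.10 ± 0.19 and 0.23 ± 0.29, and none passed. The fold change of Chtf8 ranged from 0.50 to 1.45 with a library left out, and its call changed with the library and with the genes tested. Smc1b, Stag3, Rec8, Rad21l and Ctcfl, the germline paralogs of members, were listed at 0 in all 4 libraries.

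**Figure D3:**
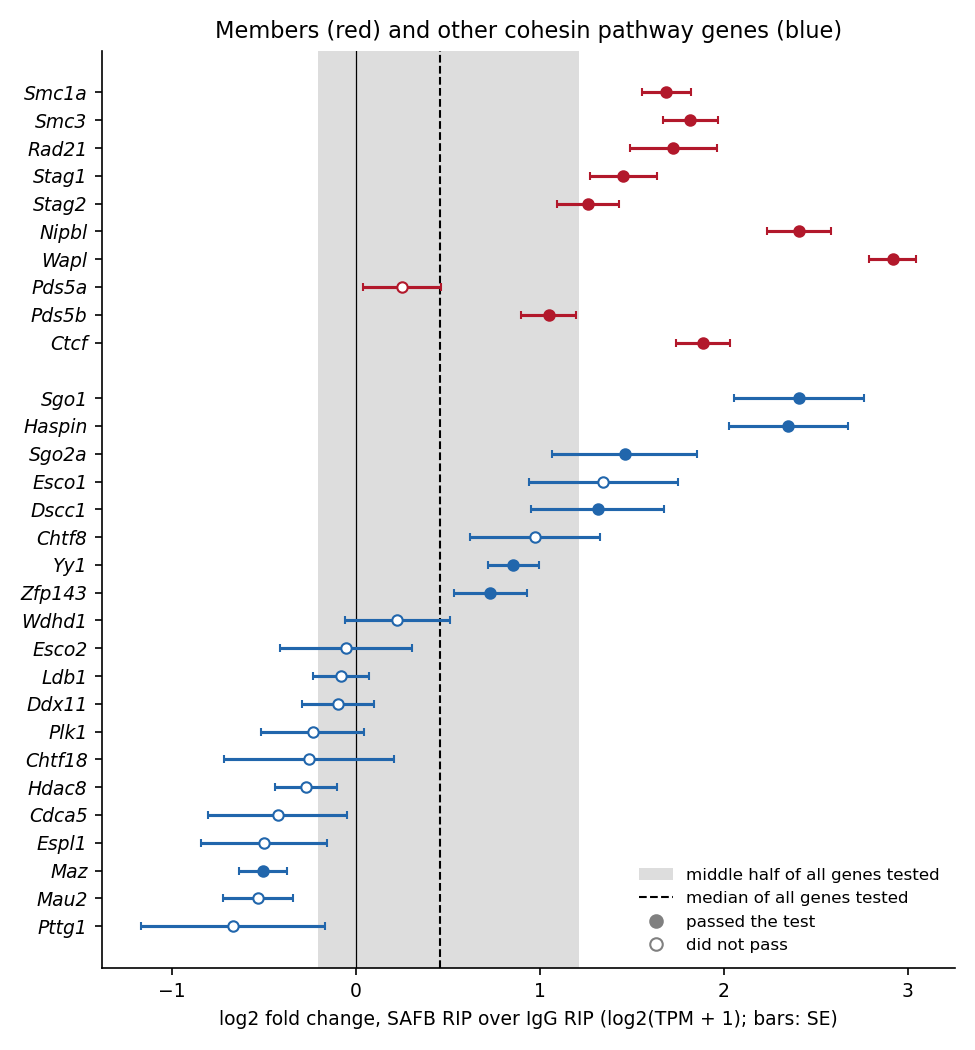
Log2 fold change of the SAFB RIP over the IgG RIP with its SE for the 10 members (red) and 20 other cohesin pathway genes tested (blue), filled where the limma test passed. The grey band spans the 25th to the 75th percentile of all genes tested (-0.21 to 1.21) and the dashed line is their median (0.46). Of the members 7 lie beyond the band with their whole error bar, and Pds5a lies below the median.

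The related SMC complexes gave values between these sets. Of 16 genes of condensin, SMC5/6 and topoisomerase II, 8 rose and 1 fell, where 29.8% of all genes tested rose and 8.3% fell. Their median log2 fold change was 1.30. After median centring 5 rose and 3 fell, where 16.4% of all genes rose and 17.6% fell. Smc5 rose by 1.55 ± 0.12, Top2a by 1.98 ± 0.37 and Top2b by 1.63 ± 0.16, while Ncaph2, a condensin II subunit gene, fell by 0.77 ± 0.14 but did not pass without SAFB RIP replicate 1 (limma adjusted p = 0.0953). Nsmce4a and Ncapd2 stood at 0.41 ± 0.21 and -0.17 ± 0.16 and did not pass, although Nsmce4a passed as higher (0.65) without IgG RIP replicate 1 and Ncapd2 as lower (-0.63) after median centring. With a trend of fold change on GC content removed, Ncaph2 stood at -0.32 and did not pass (limma adjusted p = 0.193). The difference between the condensin-related genes and the members was not tested.

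Across the 11961 protein-coding genes tested, the log2 fold change ran with Spearman's rho of 0.36 to coding GAAGA density, -0.06 to TCTTC density, 0.42 to the purine share of the coding sequence and -0.51 to GC content. These are descriptions across genes that share the same 4 libraries and overlapping base composition. Over the 10 members rho was 0.47 for GAAGA density and 0.20 for GC content. Pds5a, the member that did not pass, had the lowest GAAGA density and the lowest purine share (53.9%) of the 10, and a GC content of 43.2%. Its lysine and glutamate codon share of 15.5% was not the lowest, with 15.1% in both Stag1 and Stag2, which rose. Whether any of these features bears on the level of Pds5a was not tested. Among the 20 other cohesin pathway genes tested, genes as dense as the members were found that did not pass. Esco1, Pttg1, Cdca5 and Ddx11 held 7.12, 6.70, 6.31 and 6.25 GAAGA per kb, above the 6.19 of Nipbl, and did not pass. Their log2 fold changes were 1.35, -0.67, -0.42 and -0.10. Sgo1 rose with 5.80 GAAGA per kb and Haspin with 3.54, and Mau2 had 2.05. With a trend of fold change on GC content removed, 9 members still rose and 0 fell, while 26.3% of all genes rose and 4.95% fell. The members' median log2 fold change was then 1.34, against 0.44 over all genes. Wapl stood at 2.49, Nipbl at 1.99, Ctcf at 1.54 and Pds5a at -0.17 in that fit.

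**Figure D4:**
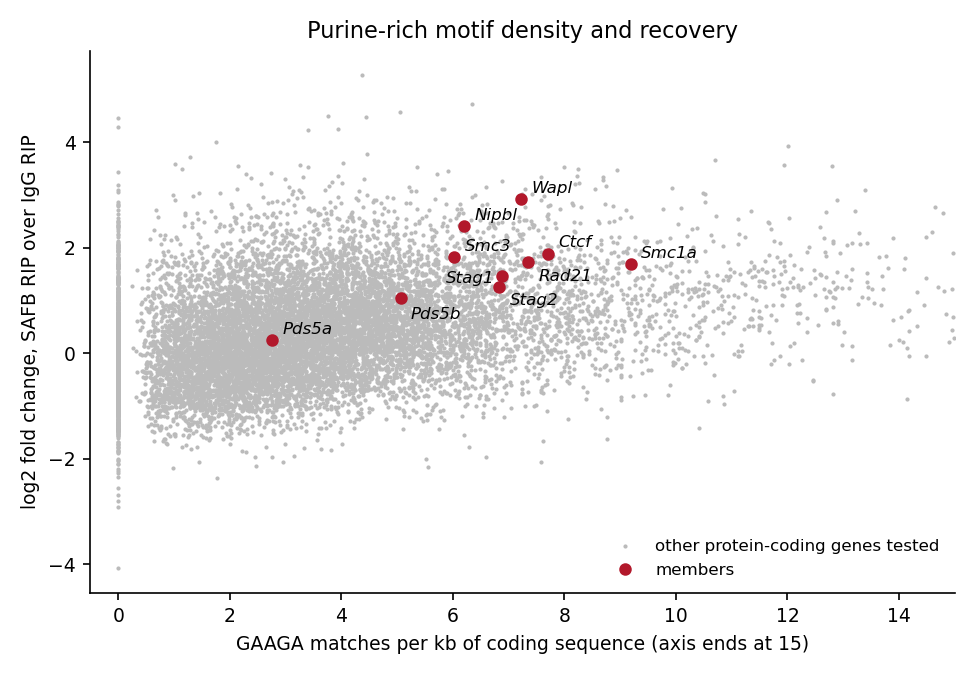
GAAGA matches per kb of coding sequence (horizontal) against the log2 fold change of the SAFB RIP over the IgG RIP (vertical) for members (red, named) and other protein-coding genes tested (grey). The axis ends at 15 per kb, beyond which lie 76 genes and no member. Pds5a lies at 2.75 per kb and the other members at 5.06 or more.

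The spread behind the calls was uneven. The median absolute log2 difference between the libraries of a group was 0.17 for the SAFB RIP and 0.37 for the IgG RIP. When SAFB RIP replicate 1 was left out, 8 members rose and Pds5b did not pass (limma adjusted p = 0.0515), and when any other library was left out 9 rose. These fits applied the filter again to the 3 libraries kept. If the genes tested were instead kept as they were, an alternative chosen after seeing the data, Wapl alone passed without either SAFB library, and the other 8 had limma adjusted p of 0.0964 to 0.204. The fold changes of these 9 members were positive in all 19 alternatives.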

How the data were processed

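The authors deposited 1 table of TPM values per gene and library. Per the submitters' processing notes, HISAT2, HTSeq, DESeq2 and StringTie and the build mm10 were used. Their versions and roles, the annotation and the strand setting are not stated there. TPM keeps no depth, so counting errors are unknown. Entries sharing an Ensembl identifier (14 entries, 6 identifiers) were summed. Of 52189 identifiers 52042 matched GENCODE release M21, which gave coordinates and transcript sequences.

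limma 3.58.1 in R 4.3.3 was fitted with variances following mean level on log2(TPM + 1), 2 SAFB against 2 IgG libraries, two-sided, with 2 residual degrees of freedom and 2.50 from the prior. Fold changes of low genes are understated on this scale. The procedure was run on simulated data with the same variance in both groups, unlike the spreads seen here. Its outcome there is therefore no measure of false calls in these data. Pseudogenes were sought with BLAST+ 2.17.0 (at least 80% identity over 150 bases). The members, the lists and the rule for named genes (all members, list genes averaging 5 TPM, the 6 most abundant condensin-related genes) were chosen with earlier results of these data known, and 1 gene of the lists is not reported here. In all, 15 planned and 4 added alternatives were run.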

Additional observations from a re-analysis of the deposited data

How the results depend on the processing

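Over 19 alternatives the 9 members that rose kept their direction, and all 9 passed in 16. Left out in turn, the libraries gave 8 to 9 members higher, or 1 to 9 with the genes tested kept. No member fell in any alternative. Their median of 1.71 was 1.25 after median centring, 1.40 after quantile normalization, 1.41 over rescaled protein-coding genes and 1.34 with the GC trend removed. Pds5a, at 0.25, changed sign after median centring (-0.21), quantile normalization (-0.057), rescaling over protein-coding genes (-0.048) and removal of the GC trend (-0.17), and ranged from -0.022 to 0.52 with a library left out.

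Over all genes 4964 rose and 1382 fell. Median centring gave 2736 and 2935, quantile normalization 2758 and 2986, rescaled protein-coding genes 2600 and 2322, and the GC trend 823 lower. Leaving out a library gave 2034 to 7781 higher and 571 to 2631 lower. With the genes tested kept, added after seeing the data, it gave 767 and 782 higher and 7 lower without a SAFB library, and up to 7627 higher with 2262 and 2566 lower without an IgG library. The prior degrees of freedom without a SAFB library were 24.05 and 22.55, and 1.04 with the genes kept. Of the other cohesin pathway genes 6 rose and 1 fell. Median centring gave 2 and 3, quantile normalization 3 and 3, no filter 3 and 0, rescaled protein-coding genes 2 lower, and the GC trend, the length trend, no variance trend and the replicate block 0 lower each. Leaving out a library gave 0 to 8 higher and 0 to 4 lower. Of the condensin-related genes 8 rose and 1 fell, against 5 and 3 after median centring, 2 lower with a mean of 5 TPM, quantile normalization or rescaling, 0 lower with the GC trend removed, and 0 to 2 lower with a library left out. None rose without a SAFB library with the genes kept.

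Further values changed sign. With the GC trend removed Maz stood at 0.48, Ldb1 at 0.54, Plk1 at 0.24, Ncapd2 at 0.12 and Wdhd1 at -0.13. After median centring Wdhd1 stood at -0.23 and Nsmce4a at -0.050. Wdhd1 stood at -0.37 after quantile normalization and -0.046 over protein-coding genes, and Ldb1 at 0.0046 with the length trend removed. With a library left out Cdca5 ranged from -0.87 to 0.017, Ldb1 from -0.26 to 0.10 and Ddx11 from -0.25 to 0.058. The cause was not tested.

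The labels number libraries 1 and 2 in both groups without saying that a number marks a shared lysate. Deviations of same-numbered libraries correlated at r = -0.02 across genes, so the numbers were not taken as pairs. With the replicate block 9 members rose, and 4797 genes rose and 1264 fell.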
